A study of Mus musculus with 2 samples.

Results

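The 9 genes described here belong to 2 neighbouring families of secreted growth factors and their receptors that serve peripheral nerves. They were chosen by symbol: the GDNF-family co-receptors *Gfra1*, *Gfra2* and *Gfra3*, the signalling receptor *Ret*, the ligands *Gdnf* and *Artn*, the neurotrophin *Bdnf*, and the neurotrophin receptors *Ngfr* and *Ntrk2*. They are 9 of the 28000 genes counted, and 8 of the 9 had at least 1 UMI (unique molecular identifier, a tag that marks 1 captured RNA molecule). The counts come from live tdTomato+ cells sorted from the trunk skin of mouse embryos at E15.5 and loaded on the 10x Chromium platform with 3′ chemistry. There was 1 library from a HIRA WT embryo (TyrCre, *Hira* wt/wt) and 1 from a HIRA KO embryo (TyrCre, *Hira* fl/fl), both with the Cre-dependent tdTomato reporter and on a mixed strain close to C57BL/6J. Cre under the tyrosinase promoter is made in the melanocytic lineage and in some other lineages. The sorted cells include several cell types, and how each came to be among them was not tested. The labels do not name the embryos, but the barcode numbers are near those the study lists for its first pair and far from its others, so they were taken as that pair. The study lists these WT and KO embryos as female and male, so genotype and sex cannot be told apart.

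Sequencing gave 7073939 UMIs over 1546 barcodes for WT and 5049514 UMIs over 846 barcodes for KO. The libraries shared 0 barcodes. After filtering, 1540 WT and 828 KO cells remained, with a median of 3967.5 and 5204.5 UMIs per cell. Levels are given as CPM, in which the UMIs that a gene has in a group of cells are scaled to a total of 1000000 for that group. Each UMI is 1 tag at the 3′ end of 1 molecule, so levels need no correction for gene length. With 1 library per genotype there is no measure of the spread between embryos, no test was made, and all intervals are 95% intervals that cover counting error only.

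The *Hira* level per library came first. In all cells, 82 *Hira* UMIs were counted in WT (11.6 CPM) and 50 in KO (10.0 CPM). In melanoblast-like cells the level was 13.9 CPM (WT, 9.66 to 19.3) and 3.53 CPM (KO, 0.728 to 10.3). These cells lay in different clusters in each library, with 225 WT and 0 KO cells in a cluster led by *Mt2* and *Npy*, 0 and 112 in one led by *Dqx1* and *Trpm1*, 151 and 3 in one led by *Pmel* and *Dct*, and 157 and 24 in one led by *Pbk* and *Dct*. In glial-like cells, where most of the genes described here were found, 18 and 9 *Hira* UMIs gave 10.99 and 7.53 CPM, a log2 ratio of KO to WT of -0.54 (-1.88 to 0.68). The 3′ tags lie at the end of the transcript and may not report a deletion elsewhere in the gene, and a difference in *Hira* between the glial-like cells of the libraries was not detectable at this depth.

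In the GDNF family, each ligand prefers 1 co-receptor anchored to the cell surface: *Gdnf* encodes the partner of the *Gfra1* product, *Nrtn* that of *Gfra2*, *Artn* that of *Gfra3* and *Pspn* that of *Gfra4*. The pair of ligand and co-receptor binds the receptor tyrosine kinase encoded by *Ret*, and the cell adhesion molecule of *Ncam1* is an alternative partner. The neurotrophins signal through Trk kinases, with *Bdnf* paired to *Ntrk2* and *Ntf3* to *Ntrk3*, while the low-affinity receptor of *Ngfr* binds the neurotrophins in general. In developing nerves, sensory and sympathetic neurons carry the kinases, and the accompanying Schwann cell precursors are known for *Ngfr* and for GDNF-family co-receptors.

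Clustering of both libraries together gave 22 clusters, of which 5 were named glial-like from marker genes. They held 448 WT and 254 KO cells, with a median of 3378.5 and 4208.0 UMIs per cell. The 5 were a promyelinating-like cluster, a cycling cluster, and 3 called here by their leading genes, *Pcdh20*/*Gabra2*, *Pou3f1*/*Cpm* and *Gm29865*/*Grb14*. *Sox10*, a transcription factor of the neural crest and of glia, was at 236 to 476 CPM in each of them in each library, against 23.3 and 26.7 CPM in WT and KO macrophage-like cells. The libraries stood apart in some clusters. The *Pou3f1*/*Cpm* cluster held 7.37% of WT glial-like cells (5.12 to 10.2, exact Clopper-Pearson) and 23.2% of KO glial-like cells (18.2 to 28.9). The *Gm29865*/*Grb14* cluster held 16.3% (12.995 to 20.05) and 5.51% (3.05 to 9.08). Each level is therefore given per cluster and per library as well as for the glial-like cells as a whole.

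Among the receptors, the 3 GDNF-family co-receptors were found mostly in glial-like cells. Of all *Gfra3* UMIs in cells, 95.9% in WT and 90.4% in KO lay in glial-like cells. For *Gfra1* the shares were 92.1% and 87.3%. For *Gfra2* they were 83.6% and 76.6%, and much of the remainder was in mesenchymal cells, with 19 WT and 11 KO UMIs in a cluster led by *Crabp1* and *Twist2* (24.4 and 20.3 CPM) and 12 KO UMIs in one led by *Clec3b* and *Mfap5*. In melanoblast-like cells, 533 in WT and 139 in KO, the co-receptors were low. There *Gfra1* had a level of 5.94 CPM (WT, 3.33 to 9.80) and 4.71 CPM (KO, 1.28 to 12.05), against 1.23 CPM (0.0311 to 6.85) and 11.5 CPM (2.36 to 33.5) in macrophage-like cells. *Gfra2* had 7 WT and 0 KO UMIs in melanoblast-like cells and 2 and 1 in macrophage-like cells. *Gfra3* was at 5.15 CPM (WT) and 7.06 CPM (KO) in melanoblast-like cells, against 8.60 and 11.5 CPM in macrophage-like cells. Their intervals overlapped in each library for *Gfra1* and *Gfra3*, and free RNA from other cells is a known source of such counts.

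*Ret* encodes the kinase through which the co-receptors are best known to signal, and it had 0 UMIs in the barcodes of both libraries. A count of 0 allows up to 1.83 CPM (WT) and 2.51 CPM (KO) glial-like cells, and up to 0.425 and 0.6004 CPM over all cells. The alternative partner *Ncam1* was present in glial-like cells, with 200 WT UMIs (122 CPM, 106 to 140) and 201 KO UMIs (168 CPM, 146 to 193). It was uneven among the clusters. In the promyelinating-like cluster *Ncam1* was at 264 CPM (WT) and 238 CPM (KO), in the *Pou3f1*/*Cpm* cluster at 192 and 261 CPM, and in the *Pcdh20*/*Gabra2* cluster at 20.1 and 73.5 CPM.

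The glial clusters differed in which co-receptor they carried. *Gfra3*, the artemin co-receptor, was at 725 CPM (621 to 841) in the WT *Gm29865*/*Grb14* cluster, at 489 CPM (429 to 554) in the *Pcdh20*/*Gabra2* cluster, at 462 CPM (385 to 549) in the cycling cluster, at 279 CPM (234 to 329) in the promyelinating-like cluster and at 80.1 CPM (38.4 to 147) in the *Pou3f1*/*Cpm* cluster. In KO the same clusters gave 622 CPM (431 to 869), 274 CPM (222 to 335), 452 CPM (359 to 563), 224 CPM (174 to 285) and 9.65 CPM (1.99 to 28.2). In WT every neighbour in this order was apart beyond counting error except the *Pcdh20*/*Gabra2* and cycling clusters. In KO the cycling cluster stood above the *Pcdh20*/*Gabra2* cluster, the *Gm29865*/*Grb14* and cycling clusters overlapped, as did the *Pcdh20*/*Gabra2* and promyelinating-like clusters, and the *Pou3f1*/*Cpm* cluster was again the lowest.

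*Gfra1*, the GDNF co-receptor, had another order. In WT it was at 309.8 CPM (263 to 363) in the *Pcdh20*/*Gabra2* cluster, 289.9 CPM (230 to 360) in the cycling cluster, 166 CPM (118 to 226) in the *Gm29865*/*Grb14* cluster, 80.1 CPM (38.4 to 147) in the *Pou3f1*/*Cpm* cluster and 58.6 CPM (39.2 to 84.1) in the promyelinating-like cluster. In KO these clusters were at 311 CPM (256 to 375), 379 CPM (294 to 481), 91.5 CPM (29.7 to 213), 177 CPM (133 to 230) and 127 CPM (90.0 to 175). The *Pcdh20*/*Gabra2* and cycling clusters were the highest in both libraries, with intervals that overlapped each other, and the 3 lower clusters overlapped their neighbours among themselves. The *Gm29865*/*Grb14* cluster headed these 3 in WT, below the cycling cluster without overlap, and was the lowest of all in KO, from 5 UMIs.

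*Gfra2*, the neurturin co-receptor, was highest in WT in the promyelinating-like cluster. Its WT levels were 145 CPM (114 to 183) there, 104 CPM (67.0 to 153) in the *Gm29865*/*Grb14* cluster, 93.1 CPM (60.8 to 136) in the cycling cluster, 48.3 CPM (30.9 to 71.8) in the *Pcdh20*/*Gabra2* cluster and 48.1 CPM (17.6 to 105) in the *Pou3f1*/*Cpm* cluster. The KO levels in the same order were 174 CPM (130.0 to 228), 183 CPM (87.7 to 336), 84.8 CPM (47.5 to 139.9), 73.5 CPM (48.0 to 108) and 16.1 CPM (5.19 to 37.5). Neighbours in this order overlapped, apart from the lowest pair in KO, while the promyelinating-like cluster lay above the *Pcdh20*/*Gabra2* cluster in each library without overlap. The *Gm29865*/*Grb14* cells were not set apart in every clustering: at Leiden resolution 0.5 they fell with the *Pcdh20*/*Gabra2* cells into 1 WT cluster at 570 CPM of *Gfra3*, 265 CPM of *Gfra1* and 65.6 CPM of *Gfra2*.

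**Figure D1:**
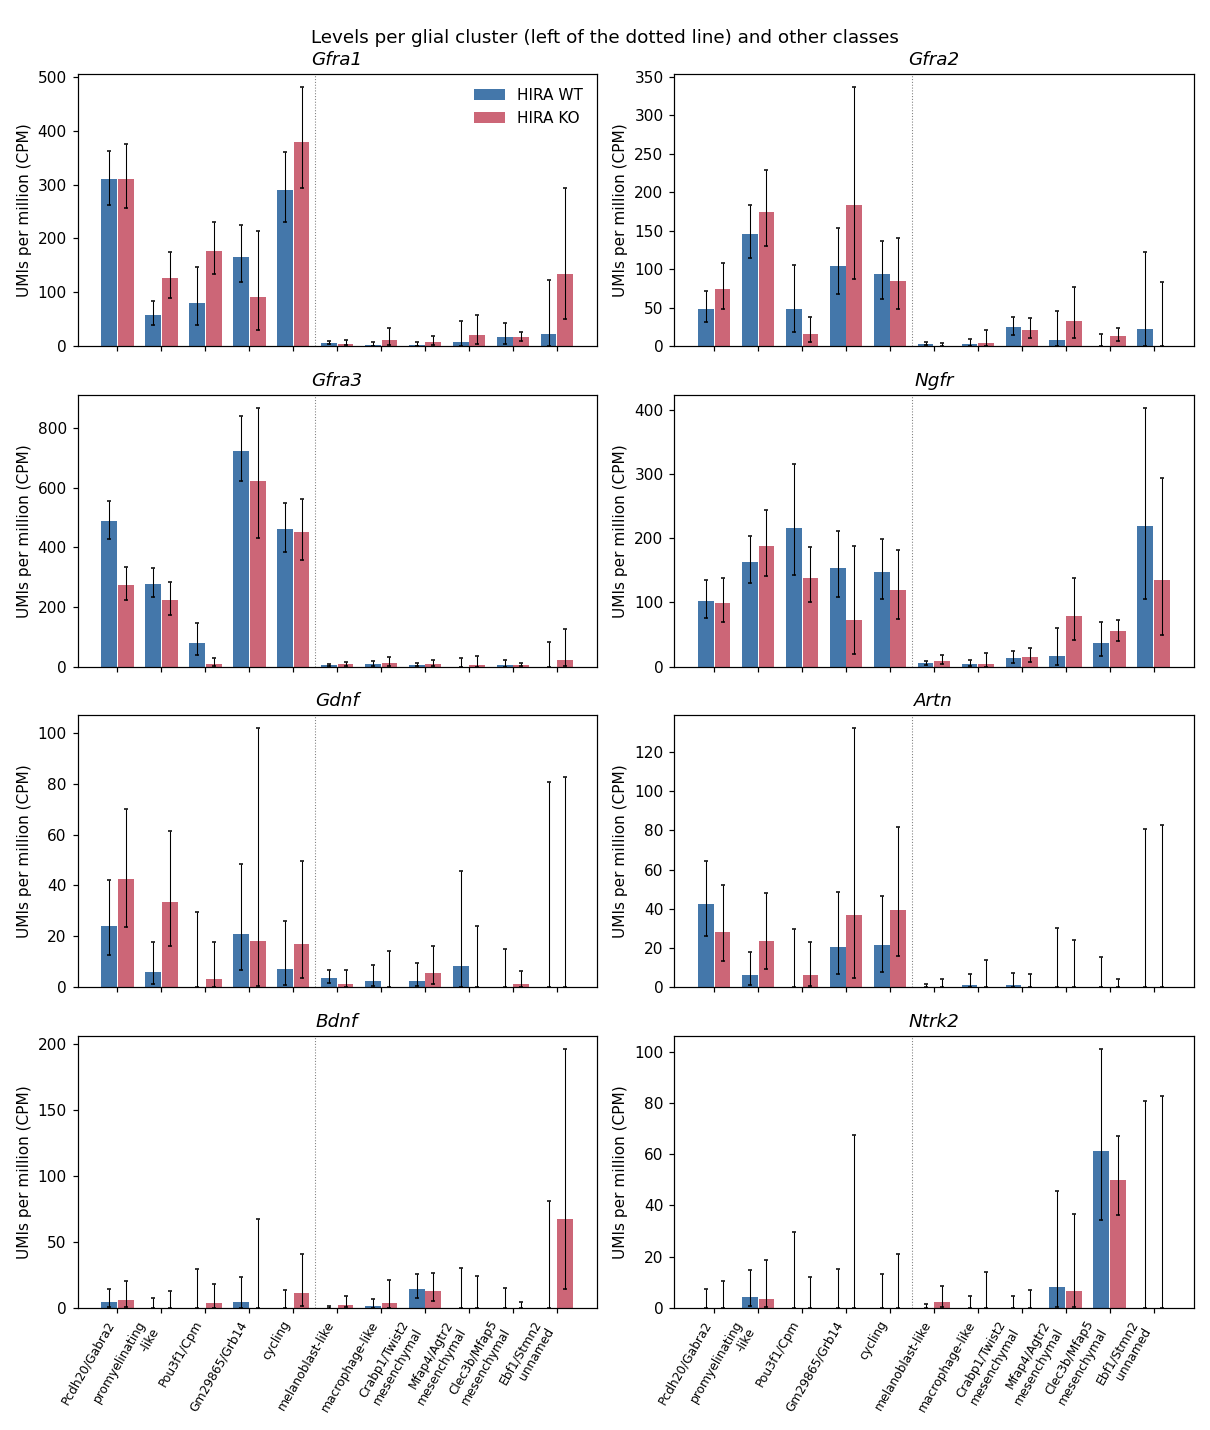
Level of 8 of the 9 genes, in CPM on a linear axis from 0, in each glial-like cluster and in the other cell classes (left and right of the dotted line), with 1 bar for the WT and 1 for the KO library and exact Poisson 95% intervals of the counting error. *Gfra3* ran from 725 CPM in the WT *Gm29865*/*Grb14* cluster to 80.1 CPM in the WT *Pou3f1*/*Cpm* cluster, and *Ntrk2* stood out in mesenchymal cells led by *Clec3b* and *Mfap5*.

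The contrast between the promyelinating-like and *Pcdh20*/*Gabra2* clusters, the pair with the most WT glial-like cells, asks how the receptor set differs between states of the lineage. Counted here as past the fold rule is a gene with a log2 ratio of at least 1 in size and at least 20 UMIs over the groups compared. In WT, 3 of the 5 genes with enough UMIs were past it, where 17.6% of the 5256 genes counted were. *Gfra2* was higher in the promyelinating-like cluster, with a log2 ratio of 1.59 (0.91 to 2.32). *Gfra1* was lower, at -2.40 (-3.03 to -1.82). *Artn* was also lower at -2.80 (-5.19 to -1.06), from 3 against 21 UMIs. *Gfra3*, at -0.81 (-1.12 to -0.50), and *Ngfr*, at 0.67 (0.15 to 1.21), were under the fold. At Leiden resolution 2 the promyelinating-like cluster is split. Its part led by *Sostdc1*, at 113 CPM in WT, gave a *Gfra3* ratio of -2.09, past the fold. Its part led by *Lect1* was at 500.2 CPM, beside 479 CPM in the main WT part of the *Pcdh20*/*Gabra2* cluster. In KO the contrast was 1.24 for *Gfra2*, -1.29 for *Gfra1*, -0.29 for *Gfra3* and 0.92 for *Ngfr*, the same direction for each of these 4. *Artn* had 7 KO UMIs in the promyelinating-like cluster and 10 in the *Pcdh20*/*Gabra2* cluster (23.4 CPM, 9.42 to 48.3, and 28.3 CPM, 13.6 to 52.0), levels that overlapped, unlike in WT.

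Of a list of 56 pathway genes that includes the 9 genes, 20 had enough UMIs in the WT contrast and 9 were past the fold rule, 6 higher and 3 lower in the promyelinating-like cluster, beside 17.6% of all genes counted. Of these, 3 of the 9 and 5 of the 20 are the genes already given. The list's median log2 ratio was 0.39, against 0.01 over all genes counted. *Ntrk3*, the receptor for the product of *Ntf3*, had 54 UMIs in the WT promyelinating-like cluster against 2 in the *Pcdh20*/*Gabra2* cluster, a log2 ratio of 4.76 (2.84 to 7.84), and 28 against 2 in KO, a ratio of 4.05 (2.06 to 7.17). *Sorcs1*, of the sortilin family of *Ngfr* co-receptors, had 28 against 1 UMIs in WT and 22 against 2 in KO, ratios of 4.81 (2.22 to 10.17) and 3.70 (1.68 to 6.84). Both genes were higher in the promyelinating-like cluster in each library. *Ncam1* was higher there by 3.72 in WT and 1.69 in KO. *Sdc3*, a heparan sulphate proteoglycan that binds GDNF-family ligands, was lower, by a log2 ratio of -2.42 in WT and -2.01 in KO. *Egr1*, an immediate early gene downstream of growth factor signalling, was at 363 CPM in the WT promyelinating-like cluster and 50.3 CPM in the WT *Pcdh20*/*Gabra2* cluster, and at 546 and 102 CPM in KO. *Spry2*, a feedback inhibitor of receptor tyrosine kinases, was the remaining gene past the rule in WT and was higher.

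Markers of other cell types moved with this contrast. The 12 mesenchymal markers summed to 5974 CPM in the WT promyelinating-like cluster and 288 CPM in the WT *Pcdh20*/*Gabra2* cluster, and to 9253 and 1392 CPM in KO, with *Col1a2* the most abundant in the promyelinating-like cells (2118 CPM in WT and 3445 CPM in KO). All 12 were detected in the promyelinating-like cluster of each library, and *Pdgfra* was at 0 in the WT *Pcdh20*/*Gabra2* cluster. The 12 glial markers summed to 5031 and 5072 CPM in the same WT clusters and to 5497 and 4373 CPM in KO, so the mesenchymal sum was above the glial sum in the promyelinating-like cells. The 12 melanoblast markers summed to 531 and 241 CPM in WT (11 and 10 detected) and to 295 and 119 CPM in KO (10 and 9 detected), with *Ptgds* on top. The 6 perineurial markers summed to 62.6 and 30.2 CPM in WT (2 and 3 detected) and to 107 and 33.9 CPM in KO (5 and 3 detected). Other lists were lower in the promyelinating-like cluster. The 8 muscle markers summed to 4.04 and 90.5 CPM in WT (2 and 3 detected) and to 23.4 and 90.5 CPM in KO (3 and 2 detected), with *Des* on top in the *Pcdh20*/*Gabra2* cluster, and the 12 neuron markers to 12.1 and 36.2 CPM in WT (4 and 4 detected) and to 43.5 and 79.2 CPM in KO (4 and 7 detected). The part of these lists in the contrast was not tested.

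The promyelinating-like cluster was itself mixed for *Gfra3*. Of its 119 WT cells, 65 had 0 *Gfra3* UMIs, 33 had 1 or 2 and 21 had at least 3, with a highest count of 8. Of its 57 KO cells, 29 had 0, 19 had 1 or 2 and 9 had at least 3. At a finer resolution of the clustering, chosen after seeing the data, the cluster fell mainly into a group led by *Sostdc1* and *1500015O10Rik* (60 WT and 46 KO cells) and a group led by *Lect1* and *C1ql3* (57 WT and 11 KO cells). In WT the *Gfra3* level was 113 CPM (76.6 to 160.0) in the *Sostdc1* group and 500.2 CPM (409.9 to 604) in the *Lect1* group. In KO it was 193 CPM (141 to 258) and 335 CPM (209.8 to 507). The groups were apart beyond counting error in WT and overlapped in KO. *Gfra2* did not separate the groups in the same way, with 145 and 172 CPM in WT and KO in the *Sostdc1* group and 149.6 and 183 CPM in the *Lect1* group. *Ntrk3* was also present in both groups, at 102 CPM (WT) and 94.4 CPM (KO) in the first, and at 122 and 91.3 CPM in the second.

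The share of glial-like cells with a UMI showed how far the co-receptors spread over single cells. For *Gfra3* it was 65.4% in WT (60.8 to 69.8) and 50.0% in KO (43.7 to 56.3). For *Gfra1* it was 44.2% (39.5 to 48.9) and 59.1% (52.7 to 65.2), and for *Gfra2* 26.6% (22.5 to 30.9) and 29.9% (24.4 to 36.0). The KO cells were deeper, and a deeper cell is more likely to show a UMI. After thinning of each cell to 2000 UMIs, without the 38 WT and 8 KO glial-like cells that had fewer, the shares were 51.7% and 33.7% for *Gfra3*, 30.5% and 35.8% for *Gfra1*, and 16.1% and 17.9% for *Gfra2*. As background, macrophage-like cells (144 WT and 34 KO cells, median depth 4937.0 and 6796.5 UMIs) showed a *Gfra3* UMI in 4.17% and 8.82% of cells, a *Gfra1* UMI in 0.694% and 8.82%, and a *Gfra2* UMI in 1.39% and 2.94%. All 3 co-receptors were above that background in the glial-like cells of both libraries.

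Most glial-like cells had at least 1 of the 3 co-receptors, 83.0% in WT and 80.3% in KO. The share in melanoblast-like cells was 6.00% and 6.47%, and in macrophage-like cells 6.25% and 20.6%. In WT, 167 glial-like cells had a UMI of exactly 1 co-receptor, 172 of 2 and 33 of all 3. In KO the numbers were 87, 85 and 32. *Gfra1* and *Gfra3* were found together in 152 WT and 86 KO cells. The clusters were unlike in this too, and in the *Pou3f1*/*Cpm* cluster 39.4% of WT and 62.7% of KO cells had any of the 3.

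The ligands were sparse and lay mostly in the glial-like cells too. *Gdnf* had 22 UMIs in WT glial-like cells (13.4 CPM, 8.42 to 20.3) and 30 in KO (25.1 CPM, 16.9 to 35.8). *Artn*, which encodes artemin, had 35 in WT (21.4 CPM, 14.9 to 29.7) and 28 in KO (23.4 CPM, 15.6 to 33.9). Glial-like cells held 92.1% of all WT and 100% of all KO *Artn* UMIs, and 59.5% and 85.7% of *Gdnf* UMIs. Melanoblast-like cells had 0 *Artn* UMIs in either library, which allows up to 1.19 CPM (WT) and 3.53 CPM (KO). For *Gdnf* they had 9 WT UMIs and 1 KO UMI (3.57 and 1.18 CPM).

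By cluster, *Artn* had 21 WT and 10 KO UMIs in the *Pcdh20*/*Gabra2* cluster (42.2 and 28.3 CPM), its highest level among the glial-like clusters in WT. In KO the cycling cluster was at 39.6 CPM (15.9 to 81.5), from 7 UMIs, and the *Gm29865*/*Grb14* cluster at 36.6 CPM (4.43 to 132), from 2, with intervals that overlapped. *Gdnf* had 12 WT and 15 KO UMIs in the *Pcdh20*/*Gabra2* cluster (24.1 and 42.4 CPM). The promyelinating-like cluster had 3 WT and 10 KO *Gdnf* UMIs (6.06 and 33.5 CPM), and the *Pou3f1*/*Cpm* cluster had 0 and 1. A UMI of *Gdnf* was found in 4.69% of WT and 10.2% of KO glial-like cells, or 3.66% and 4.47% after thinning, against 0.694% and 0% of macrophage-like cells. For *Artn* the shares were 6.92% and 9.45%, or 5.85% and 4.07% after thinning, with 0.694% and 0% in macrophage-like cells. A UMI of either ligand was found in 51 WT and 47 KO glial-like cells, and 45 and 42 of these also had a co-receptor UMI. *Gdnf* and *Gfra1* were found together in 13 of 21 WT and 19 of 26 KO cells with *Gdnf*. Of all glial-like cells, 44.2% and 59.1% had *Gfra1*. *Artn* and *Gfra3* were found together in 21 of 31 WT and 17 of 24 KO cells with *Artn*. Of all glial-like cells, 65.4% and 50.0% had *Gfra3*. In the WT promyelinating-like cluster both pairs were at 0. Ligand and preferred co-receptor were thus read from some of the same barcodes in both libraries, and whether more often than the co-receptor alone would give was not tested.

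The ligand of *Gfra2* lay elsewhere. *Nrtn*, which encodes neurturin, had only 14 WT and 8 KO UMIs in glial-like cells. In the *Crabp1*/*Twist2* mesenchymal cluster it had 32 WT UMIs (41.2 CPM, 28.2 to 58.1) and 38 KO UMIs (70.3 CPM, 49.7 to 96.5). Keratinocyte-like cells, 13 in WT and 81 in KO, had 2 and 31 *Nrtn* UMIs (22.3 CPM, 2.70 to 80.6, and 40.8 CPM, 27.7 to 57.9). The *Crabp1*/*Twist2* cluster also held 27 WT and 14 KO UMIs of *Gfra4* (34.7 and 25.9 CPM), the co-receptor for persephin. An unnamed cluster of 12 WT and 13 KO cells led by *Ebf1* and *Stmn2* had 14 *Nrtn* UMIs in each library (307 and 314 CPM). *Pspn*, the persephin gene, had 0 UMIs in both libraries.

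On the neurotrophin side, *Ngfr* was the member with a clear glial level. It had 237 UMIs in WT glial-like cells (144.7 CPM, 127 to 164) and 159 in KO (133 CPM, 113 to 155). It was present in all 5 glial clusters. The WT clusters ran from 103 CPM (76.4 to 135) in the *Pcdh20*/*Gabra2* cluster to 216 CPM (143 to 315) in the *Pou3f1*/*Cpm* cluster, with 147 CPM in the cycling, 153 CPM in the *Gm29865*/*Grb14* and 164 CPM in the promyelinating-like cluster between them. The KO clusters ran from 73.2 CPM (19.9 to 187) in the *Gm29865*/*Grb14* cluster to 187 CPM (142 to 243) in the promyelinating-like cluster. In WT the intervals of the levels overlapped except at the ends of the order, and in KO the promyelinating-like cluster lay above the *Pcdh20*/*Gabra2* cluster at 99.0 CPM (69.0 to 138). A UMI of *Ngfr* was found in 36.2% of WT and 39.0% of KO glial-like cells, or 23.9% and 24.8% after thinning, against 2.08% and 2.94% of macrophage-like cells.

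*Ngfr* also had counts outside the glial-like cells. Glial-like cells held 83.2% of its WT and 63.3% of its KO UMIs. Mesenchymal-like cells had 21 WT and 68 KO UMIs (18.4 CPM, 11.4 to 28.1, and 43.3 CPM, 33.6 to 54.9), a log2 ratio of KO to WT of 1.24 (0.51 to 2.02). The mesenchymal-like cells were a different mix in the libraries: the *Clec3b*/*Mfap5* cluster held 51 WT and 148 KO cells. Within that cluster *Ngfr* was at 36.9 CPM (WT) and 54.7 CPM (KO). The *Ebf1*/*Stmn2* cluster had 10 WT and 6 KO *Ngfr* UMIs (219 and 135 CPM) in its few cells.

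*Ntrk2* and *Bdnf*, a receptor and its ligand, were nearly absent from glial-like cells. *Ntrk2* had 2 WT UMIs and 1 KO UMI there, and *Bdnf* had 3 and 5. The main site of *Ntrk2* was the *Clec3b*/*Mfap5* mesenchymal cluster, with 15 WT UMIs (61.5 CPM, 34.4 to 101) and 44 KO UMIs (50.1 CPM, 36.4 to 67.3), levels that overlapped. The WT level there depended on the clustering, at 15.54 CPM in the matching cluster at Leiden resolution 2 and 20.8 CPM with no gene held out of the clustering. Over all mesenchymal-like cells, *Ntrk2* had 16 and 45 UMIs (14.0 and 28.6 CPM) and a log2 ratio of KO to WT of 1.03 (0.18 to 1.96). Within the *Clec3b*/*Mfap5* cluster the ratio was -0.29, which rests on the WT level of 61.5 CPM and so depended on the clustering. The part of the cluster mix in the ratio over all mesenchymal-like cells was not tested. The counts are summed per gene and do not separate the full-length kinase form of *Ntrk2* from its truncated forms. Of the *Bdnf* UMIs, 11 of 16 in WT and 7 of 21 in KO were in the *Crabp1*/*Twist2* mesenchymal cluster (14.2 CPM, 7.07 to 25.3, and 12.9 CPM, 5.20 to 26.7), and in KO 3 each were in keratinocyte-like cells and in the *Ebf1*/*Stmn2* cluster. Among mesenchymal-like cells *Bdnf* was read in no other cluster, and *Ntrk2* had 0 UMIs in the *Crabp1*/*Twist2* cluster of both libraries, which allows up to 3.86 CPM (WT) and 5.55 CPM (KO).

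*Ntf3* encodes the ligand of *Ntrk3*, and it had 0 UMIs in glial-like cells. In the *Crabp1*/*Twist2* mesenchymal cluster it had 11 of its 17 WT UMIs (14.2 CPM) and 12 of its 32 KO UMIs (22.2 CPM). Its highest level was in the few cells of the *Ebf1*/*Stmn2* cluster, with 2 WT UMIs (43.9 CPM, 5.31 to 158) and 8 KO UMIs (179 CPM, 77.5 to 354). Of the *Ntrk3* UMIs of glial-like cells, 84.4% in WT and 82.4% in KO were in the promyelinating-like cluster. The KO *Clec3b*/*Mfap5* mesenchymal cluster held both genes, with 9 *Ntrk3* and 5 *Ntf3* UMIs (10.2 and 5.69 CPM).

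The question the genotypes pose is whether these genes differ in glial-like cells of the HIRA KO embryo. Of the 9 genes, 6 had at least 20 UMIs in glial-like cells of both libraries together, and 0 of the 6 were past the fold rule, where 6.41% of the 8595 genes counted were. From the levels already given, KO over WT came to a log2 ratio of 0.13 (-0.64 to 0.89) for *Artn*, -0.12 (-0.42 to 0.18) for *Ngfr* and 0.90 (0.06 to 1.77) for *Gdnf*. *Gfra1* was at 192 CPM (WT, 171 to 214) and 230.2 CPM (KO, 204 to 259), a ratio of 0.26 (0.03 to 0.50). *Gfra2* was at 93.4 CPM (79.2 to 109) and 90.4 CPM (74.2 to 109), a ratio of -0.05 (-0.42 to 0.32). For these 5 genes the intervals of the WT and KO levels overlapped, although those of the ratio lay just above 0 for *Gdnf* and *Gfra1*.

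*Gfra3* was the member whose levels in the libraries lay apart, at 424 CPM (WT, 393 to 457) and 235 CPM (KO, 209 to 264), a log2 ratio of -0.85. By cluster the ratio was -0.83 (-1.19 to -0.49) in the *Pcdh20*/*Gabra2* cluster, -0.31 (-0.76 to 0.12) in the promyelinating-like cluster, -0.22 (-0.80 to 0.32) in the *Gm29865*/*Grb14* cluster and -0.03 (-0.45 to 0.38) in the cycling cluster. In the *Pou3f1*/*Cpm* cluster 10 WT and 3 KO UMIs gave -3.05 (-5.55 to -1.10). The difference was thus uneven, with the cycling cells of both libraries at the same level within counting error. In the finer groups of the promyelinating-like cluster the signs were opposite, 0.78 (0.09 to 1.49) in the *Sostdc1* group and -0.58 (-1.31 to 0.09) in the *Lect1* group.

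The mix of clusters bears on the *Gfra3* value. The KO levels of the 5 clusters were weighted by each cluster's share of WT glial-like UMIs, an alternative chosen after seeing the data. The ratio was then -0.40, and -0.33 with the finer clusters. Without the *Pou3f1*/*Cpm* cluster it was -0.53. At the finer resolution the *Pcdh20*/*Gabra2* cluster itself fell into a group of 146 WT and 10 KO cells led by *Fst* and *Lims2* and a group of 11 WT and 85 KO cells led by *Pcdh20* and *Kif26b*. *Gfra3* was at 479 CPM (419 to 545) and 482 CPM (249.3 to 843) in these groups in WT, and at 314 CPM (143 to 595) and 277 CPM (223 to 340) in KO, ratios of -0.61 (-1.76 to 0.34) and -0.80 (-1.67 to 0.20). The groups were alike within each library. Each ratio's interval includes 0, with only 9 KO UMIs in the first group and 12 WT UMIs in the second. Both ratios lay within the interval given above for the whole cluster. For *Gfra2* the same weighting gave 0.33 and 0.43, where the unweighted ratio was -0.05. For *Gdnf* it gave 1.10 and 1.75, past the fold, and leaving out the *Pou3f1*/*Cpm* cluster gave 1.17, where the unweighted ratio from 22 and 30 UMIs was 0.90 and that after thinning 0.20. For *Artn* the weighting gave 0.41 and 0.85, and thinning -0.50, where the unweighted ratio was 0.13. In the finer mix, the *Fst*/*Lims2* group took its weight from 146 WT cells, while its 10 KO cells held 3 *Gdnf* and 2 *Artn* UMIs. The KO levels there were 105 CPM (21.6 to 306) for *Gdnf* and 69.7 CPM (8.44 to 252) for *Artn*. The ratios of both ligands thus depended on the setting. For *Gfra1* the weighting gave 0.23 and 0.41, where the unweighted ratio was 0.26.

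**Figure D2:**
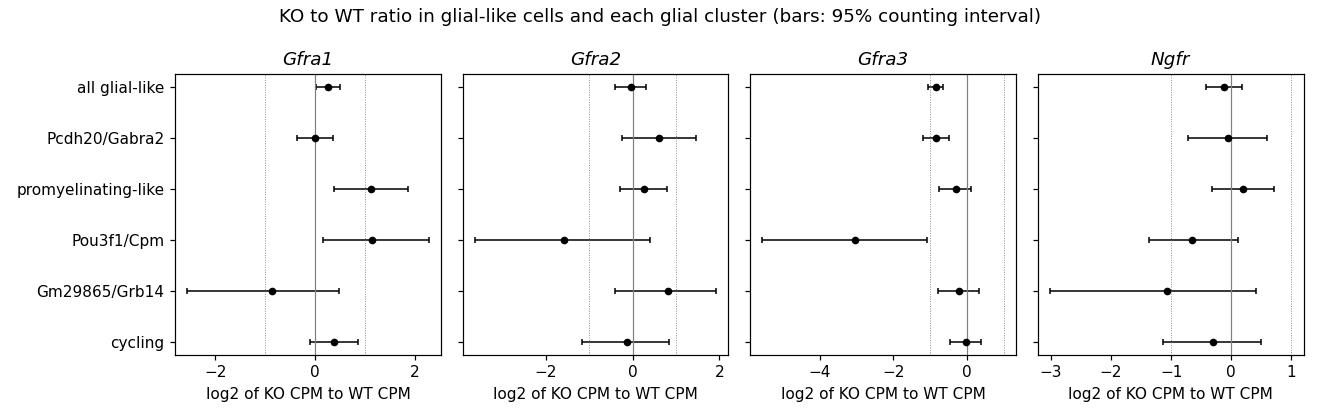
Log2 ratio of KO to WT level of *Gfra1*, *Gfra2*, *Gfra3* and *Ngfr* in all glial-like cells and in each of the 5 glial-like clusters, as points with 95% intervals of the counting error, with dotted lines at the fold rule of 1 and -1. *Gfra3* lay at -0.85 in all glial-like cells and between -0.83 and -0.03 in 4 clusters, while *Gfra1* was above 1 in the promyelinating-like and *Pou3f1*/*Cpm* clusters.

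*Gfra1* differed between the libraries in a pair of clusters where its WT level was low. In the promyelinating-like cluster it was higher in KO, with the levels given above and a log2 ratio of 1.12 (0.38 to 1.87). In the *Pou3f1*/*Cpm* cluster it was higher in KO by 1.14 (0.16 to 2.28). In the *Sostdc1* group of the finer clustering, *Gfra1* was at 40.0 CPM (WT) and 124 CPM (KO), a ratio of 1.64 (0.59 to 2.79), and in the *Lect1* group the ratio was 0.79 (-0.56 to 2.03). In the finer group that matches the *Pou3f1*/*Cpm* cluster it was 0.85 (-0.04 to 1.85), under the fold and with an interval that includes 0, so the call there depended on the clustering. The *Pcdh20*/*Gabra2* cluster, with the most *Gfra1* UMIs, gave 0.01, and the cycling cluster 0.39. The *Gm29865*/*Grb14* cluster went the other way, at -0.86 (-2.56 to 0.48). *Gfra2* in the *Pou3f1*/*Cpm* cluster had 6 WT and 5 KO UMIs and a ratio of -1.58 (-3.63 to 0.40), an interval that includes 0, and in the matching finer group 9 and 5 UMIs gave -2.08 (-4.00 to -0.35). In the finer group led by *Pcdh20* and *Kif26b*, with 11 WT cells, the ratio was -1.74 (-3.07 to -0.16) for *Gfra2*, from 6 and 24 UMIs, and -2.44 (-3.41 to -1.39) for *Ngfr*, from 13 and 32 UMIs. *Ngfr* in the *Gm29865*/*Grb14* cluster, from 37 and 4 UMIs, was at -1.07 (-3.02 to 0.41), which also includes 0. *Gdnf* in the promyelinating-like cluster had 3 WT and 10 KO UMIs, a ratio of 2.47 (0.51 to 4.97), and in the *Sostdc1* group 1 and 9 UMIs, a ratio of 3.41 (0.56 to 8.86), both under the minimum of 20 UMIs of the fold rule. In the *Pcdh20*/*Gabra2* cluster its ratio was 0.81 (-0.38 to 2.04), from 12 and 15 UMIs. These clusters were chosen for mention after their values were seen.

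Markers of other cell types moved with genotype in the glial-like cells. A list of 12 mesenchymal markers summed to 2175 CPM (WT) and 3237 CPM (KO), with 12 of 12 detected and *Col1a2* the most abundant (746 and 1134 CPM). A list of 10 keratinocyte markers summed to 85.5 and 528 CPM, with 8 of 10 detected in WT (*Epcam* and *Dsp* at 0) and 10 of 10 in KO, and *Krt10* on top (62.9 and 231 CPM). A list of 8 erythroid markers summed to 87.3 and 1131 CPM, with *Alas2* and *Slc4a1* at 0 in WT, *Hbb-y* at 0 in both libraries, and *Hbb-bs* on top (47.6 and 645 CPM). These 3 sums were higher in the KO cells, as were those of 7 granulocyte markers, at 31.7 and 212 CPM (7 of 7 detected, *S100a8* on top), and of 8 adipocyte markers, at 25.0 and 67.0 CPM (4 and 5 detected, *Fabp4* and *Car3* on top). The *Pou3f1*/*Cpm* cluster held 63 of the 80 KO adipocyte marker UMIs (203 CPM, against 32.0 CPM in WT). Other lists were lower in KO: 12 melanoblast markers summed to 272 and 157 CPM (11 and 12 detected, *Ptgds* on top at 98.3 and 56.9 CPM), and 8 mast cell markers to 128 and 26.8 CPM (6 and 4 detected, *Cma1* and *Cpa3* on top). The macrophage list was at 67.2 and 65.3 CPM, the endothelial list at 25.6 and 26.8 CPM, the pericyte list at 11.6 and 6.70 CPM, the muscle list at 46.4 and 58.6 CPM and the perineurial list at 37.2 and 48.5 CPM. The shift was therefore not in 1 direction for all cell types. Neuron markers, 12 genes, summed to 29.3 CPM (21.6 to 38.9) and 47.7 CPM (36.1 to 61.8), with 6 detected in WT and 9 in KO, *Elavl4* on top (19 and 26 UMIs), and *Elavl3*, *Snap25* and *Th* at 0 in both libraries. The list of 12 glial markers itself was at 4794 CPM (WT) and 4538 CPM (KO), with *Fabp7* on top (921 and 855 CPM). The part of the other cell types' RNA in the ratios was not tested.

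Over the wider pathway list, 32 of 56 genes had at least 20 UMIs in glial-like cells, and 2 of the 32 were past the fold rule between genotypes, near the 6.41% of all genes counted. Both were higher in KO, where 333 of all genes were higher and 218 lower. They were *Spry1*, a feedback inhibitor of receptor tyrosine kinases, with 9 WT and 16 KO UMIs (log2 ratio 1.29, 0.02 to 2.65), and *Gab2*, an adaptor, with 8 and 13 UMIs (1.16, -0.22 to 2.63). With the KO clusters weighted by the WT shares of UMIs both were under the fold, at 0.78 for *Spry1* and 0.98 for *Gab2*. The list's median log2 ratio was -0.04, with 15 genes above 0 and 17 below, against a median of -0.01 over all genes. *Ncam1* had a ratio of 0.46, *Sdc3* of -0.51 and *Egr1* of 0.52, with the *Egr1* UMIs of glial-like cells mostly in the promyelinating-like cluster (72.6% in WT and 62.9% in KO).

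The genes most alike in pattern were sought over the clusters of each library with at least 20 cells, 16 in WT and 10 in KO, by Pearson's r of log2 levels, as a description over points that share a library. For *Gfra1*, *Moxd1* (r = 0.96 in WT and 0.97 in KO) and *Vat1l* (0.95 and 0.98) were among the 5 most alike in both libraries. For *Gfra2*, *Vgll3* (0.97 and 0.96) and *Fam101a* (0.95 and 0.94) were. *Gfra3* was most like *Dab1* in WT (0.98), and *Ngfr* most like *Chl1* in WT (0.97) and *Lama4* in KO (0.99), with no gene among the 5 in both libraries for either.

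The 9 genes lie on 9 chromosomes. On GRCm38 (GENCODE M21), *Gfra1* (ENSMUSG00000025089) spans chr19:58235604-58455909 on the minus strand, *Gfra2* (ENSMUSG00000022103) chr14:70890120-70979838 on the plus strand, and *Gfra3* (ENSMUSG00000024366) chr18:34689898-34720387 on the minus strand. *Ret* (ENSMUSG00000030110) spans chr6:118151745-118197718 on the minus strand, *Ngfr* (ENSMUSG00000000120) chr11:95568818-95587735 on the minus strand, and *Bdnf* (ENSMUSG00000048482) chr2:109674700-109727007 on the plus strand. The 3 co-receptor genes thus lie on 3 different chromosomes.

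The remaining 3 genes are the GDNF-family ligands found mostly in glial-like cells and the neurotrophin receptor found mostly in mesenchymal cells. *Gdnf* (ENSMUSG00000022144) spans chr15:7810846-7837575 on the plus strand, *Artn* (ENSMUSG00000028539) chr4:117926162-117929763 on the minus strand, and *Ntrk2* (ENSMUSG00000055254) chr13:58806569-59133970 on the plus strand.

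RefSeq promoter windows were matched to 6 of the 9 genes. No window was used for *Gfra2*, *Gfra3* and *Ret*, which does not show that RefSeq lacks an entry for them. The 250 bases before the start are printed for the ligand pair, whose UMIs lay mostly in glial-like cells, and for *Ntrk2*, whose UMIs lay mostly in mesenchymal cells. Each is given 5′ to 3′ on the gene's own strand of GRCm38.p6, and 0 of its bases lie in a GENCODE M21 exon of the gene. Capitals mark the letters of 4 motifs searched on both strands: the SOX core (ACAAAG or ACAATG), the GC box (GGGCGG), an E-box (CAGCTG) and the TATA box (TATAAA). The *Gdnf* window is that of the first of its 2 RefSeq starts, chr15:7809798-7810047 on the plus strand, and it holds 1 TATA box. The *Artn* window, chr4:117929764-117930013 on the minus strand, holds 2 GC boxes and 1 E-box. The *Ntrk2* window, chr13:58806319-58806568 on the plus strand, holds 1 SOX core.
Gdnf: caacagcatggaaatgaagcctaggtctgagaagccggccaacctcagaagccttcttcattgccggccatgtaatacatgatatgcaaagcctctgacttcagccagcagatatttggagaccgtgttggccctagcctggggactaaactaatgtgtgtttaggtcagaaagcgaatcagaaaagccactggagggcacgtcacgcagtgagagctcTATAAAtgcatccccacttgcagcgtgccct
Artn: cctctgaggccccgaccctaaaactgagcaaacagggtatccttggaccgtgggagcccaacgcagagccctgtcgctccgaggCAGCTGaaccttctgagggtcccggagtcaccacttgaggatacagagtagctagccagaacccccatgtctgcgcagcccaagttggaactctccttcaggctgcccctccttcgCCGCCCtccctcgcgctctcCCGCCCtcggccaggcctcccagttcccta
Ntrk2: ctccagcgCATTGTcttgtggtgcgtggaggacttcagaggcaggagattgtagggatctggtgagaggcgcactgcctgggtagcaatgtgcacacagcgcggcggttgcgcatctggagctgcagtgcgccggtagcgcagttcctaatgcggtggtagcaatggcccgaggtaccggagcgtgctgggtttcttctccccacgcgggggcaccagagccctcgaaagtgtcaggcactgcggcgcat
Of all 32851 RefSeq promoter windows of 250 bases, 25.2% hold a SOX core, 32.7% a GC box, 13.001% this E-box and 12.4% a TATA box. A match is a description, not a site or a cause.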

How the data were processed

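The authors aligned each library with Cell Ranger 2.2.0 to the mouse genome mm10 with tdTomato and Cre added, and deposited the UMI counts per gene and cell barcode without normalization. Barcodes with under 100 genes, over 40000 UMIs or over 10% mitochondrial UMIs were removed (6 WT and 18 KO), and doublets were kept. Genes in at least 3 cells were kept, each cell was scaled to 10000 counts on a log scale, and 1986 of 2000 variable genes were used, with the 9 genes and the pathway list held out. The libraries were clustered jointly, from 30 principal components and a graph of 15 neighbours, by the Leiden method at resolution 1 (finer clusters: 2, seed 0). A marker was raised when at least 10% of a cluster's cells had it and it stood 1 log2 unit or more above the other cells, 10 CPM being added to each level. Clusters were named for the class with most of its markers raised (by share, and 3 or more), from lists of 6 to 12 genes for 14 classes, of which 11 were found. The *Ebf1*/*Stmn2* cluster was left unnamed, although 5 of the 12 markers of a list were raised in it.

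UMIs were summed per group and scaled to CPM, with exact Poisson intervals. Shares have exact Clopper-Pearson intervals, and log2 ratios exact conditional binomial intervals. For a count of 0 the limit is that of 3 counts. Likeness was read among genes with at least 100 UMIs, with 10 CPM added, for members with at least 50 UMIs. The genes named are the 9 genes, *Hira*, genes of the 56-gene pathway list with at least 20 UMIs in glial-like cells, and the 5 most alike per member. *Gfra4*, *Pspn*, *Ntf3*, the markers and the genes that lead a cluster were named after their values were seen. Results for some single genes of the lists are left out of the text. The members and lists were chosen with earlier results of these data known. Coordinates are those of GENCODE M21 and promoters those of RefSeq. Clustering used scanpy 1.11.5 with igraph 0.11.9, anndata 0.12.19 and scikit-image 0.26.0, intervals scipy 1.17.1, tables pandas 2.3.3 and numpy 2.4.6, and plots matplotlib 3.10.9, under Python 3.11.15. The alternatives tried were other cell filters, other Leiden resolutions, each library clustered alone, doublets left out, no gene held out, the mean of per-cell CPM, thinning to 2000 UMIs, other thresholds for the list count, and, chosen after seeing the data, the WT mix of clusters for both libraries and the omission of 1 cluster.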

Additional observations from a re-analysis of the deposited data

Results flagged for a closer look

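For *Gfra1* and *Ngfr*, the log2 ratio of KO to WT had opposite signs in some pairs of cell groups, each at least 0.58 in size. None of these differences between groups was tested, since there is 1 library per genotype. For *Gfra1*, the ratio in the promyelinating-like cluster exceeded that in the *Gm29865*/*Grb14* cluster by 1.98, the ratio in the *Pou3f1*/*Cpm* cluster exceeded it by 2.0002, and that in mesenchymal-like cells by 2.21. For *Ngfr*, the ratio in melanoblast-like cells exceeded that in the *Pou3f1*/*Cpm* cluster by 1.51 and that in the *Gm29865*/*Grb14* cluster by 1.94. In mesenchymal-like cells the *Ngfr* ratio exceeded those of the same clusters by 1.88 and 2.30. In the finer groups that match these 2 clusters the *Ngfr* ratios were -0.56 (-1.29 to 0.19) and -0.48 (-2.02 to 0.77). Both are under 0.58 in size, with intervals that include 0. The melanoblast-like cells of the libraries lay mostly in different clusters. The *Gm29865*/*Grb14* cluster had 14 KO cells, with 5 *Gfra1* and 4 *Ngfr* UMIs.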

How the results depend on the processing

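The KO to WT ratios of 6 genes were recomputed under 12 alternatives. Those in filters, clustering and doublets kept nearly the same glial-like cells, 444 to 448 in WT and 252 to 255 in KO. The ratios could therefore hardly move under these. Over all 12 alternatives, 67 of 72 values stayed within the counting interval of the reported one. The other 5 came from alternatives chosen after seeing the data. With the WT mix of glial-like clusters, *Gfra2* was at 0.33 and *Gfra3* at -0.40, with the mix of finer clusters they were at 0.43 and -0.33, and without the *Pou3f1*/*Cpm* cluster *Gfra3* was at -0.53. By construction the WT mix and the omission of a cluster change only how the clusters are weighed, while the finer mix also groups the cells anew. *Gdnf* stayed within its interval but passed the fold in the same 3 alternatives (1.10, 1.75 and 1.17), and ran from 0.20 to 1.75 in all. *Artn* ran from -0.50 to 0.85. The highest value of each came from the finer mix, in which a group with 10 KO cells held 3 *Gdnf* and 2 *Artn* UMIs in KO. Of 27 WT ratios between the promyelinating-like and *Pcdh20*/*Gabra2* clusters, 26 stayed within the interval. The other was *Gfra3* at Leiden resolution 2, which splits the promyelinating-like cluster, with -2.09 from its part led by *Sostdc1*. Of 342 WT levels, 322 stayed within it and 20 moved. Thinning moved 19 of 36 shares of cells with a UMI. The 2 genes of the pathway list past the fold rule became 0 with a minimum of 50 UMIs and 6 with a log2 ratio of at least 0.58, 3 of them higher and 3 lower. The count was 3 with a minimum of 10 UMIs and 2 with median-ratio scaling, which shifted the median by -0.03. No called value that was recomputed changed sign. The WT contrast between clusters was recomputed for *Gfra1*, *Gfra2* and *Gfra3* only, so the other genes past the fold rule there have no alternatives.

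With 1 library per genotype, the spread between embryos is unknown and no difference between genotypes was tested. Depth limits *Gdnf*, *Artn*, *Bdnf* and *Ntrk2* to few UMIs, and *Ret* to an upper limit. Glial-like clusters differed in size between the libraries, and their finer groups held few cells of 1 library or the other.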
